A study of Mus musculus with 6 samples.

Results

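*Lif*, *Lifr*, *Il6st*, *Stat3*, *Socs3*, *Egfr*, *Erbb2*, *Erbb3*, *Hbegf* and *Spp1* encode ligands, receptors and effectors of blastocyst activation and attachment, and they were chosen by name and found by their Ensembl identifiers. All 10 were among the 55774 rows of the deposited table, and 7 of them were expressed highly enough to be tested, namely *Lif*, *Lifr*, *Stat3*, *Erbb2*, *Erbb3*, *Hbegf* and *Spp1*. The samples were wild-type ICR mouse embryos, collected from oviducts soon after the first cleavage and grown to blastocysts in CZB medium over 75 hours with extracellular vesicles from human Fallopian tube fluid. Vesicles came from women with endometriosis in the oEV-EMT group and from women without it in the oEV-ctrl group. The labels name uterine fibroids as the condition of the control donors and the methods of the study name another condition, so that the groups are called here by their vesicle names alone. Each group had 3 libraries of 10 blastocysts. Embryos cultured without vesicles are not analysed here, and no uterine cells were present in the culture. Nothing in the labels says that the libraries came from separate cultures, so the p-values measure the spread between these samples, which may be technical.

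LIF is a cytokine of the IL-6 family. It is made chiefly by the uterus at implantation, and it binds a pair of receptor chains, LIFR and gp130 (*Il6st*), which activate STAT3. STAT3 in turn raises its own inhibitor SOCS3. HB-EGF is a membrane-bound growth factor that can be cut free by ADAM proteases and that signals through the ERBB receptors, of which ERBB2 has no known ligand of its own and ERBB3 has little kinase activity and works in pairs. Osteopontin (*Spp1*) is a secreted protein that holds cells through the integrins on their surface.

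A pair of sequences is shown, one in a ligand and one before a RefSeq start site of an inhibitor. Integrins hold osteopontin at a run of arginine, glycine and aspartate, and the first sequence is the stretch of the *Spp1* transcript that encodes it. It was read from the GENCODE M21 transcripts at chr5:104439457-104439513 of GRCm38, on the plus strand, in exon 6 of 7. The 9 bases in capitals are the codons of the run, the first of them codon 144 of 294, and the coding sequence holds this run of residues at 1 place.
Spp1: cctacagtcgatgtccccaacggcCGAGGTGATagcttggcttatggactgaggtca
The second sequence is the 250 bases before a RefSeq start site of *Socs3* (chr11:117969367-117969616 of GRCm38.p6, minus strand), with the letters of a STAT motif in capitals. The motif searched was TTCNNNGAA, which reads the same on both strands.
Socs3: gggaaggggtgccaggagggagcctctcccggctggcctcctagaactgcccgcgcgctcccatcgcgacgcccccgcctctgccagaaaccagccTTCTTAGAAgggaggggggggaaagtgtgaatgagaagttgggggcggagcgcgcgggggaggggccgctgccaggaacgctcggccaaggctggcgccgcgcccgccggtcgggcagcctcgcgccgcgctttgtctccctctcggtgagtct
The match ends 145 bases before that start site. These 250 bases lie within the GENCODE bounds of *Socs3*, 117966079 to 117970047. RefSeq promoters were at hand for 8 of the 10 genes, 10 promoters in all, and *Socs3* was the 1 gene with the motif. Of all 32851 promoters of the same length, 2306 (7.02%) hold it, so a match describes the letters and does not show a bound site.

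The values are FPKM, fragments per kilobase of transcript, scaled to the fragments of each library. They keep no read totals, so no interval from counting can be given. Genes with at least 1 FPKM in at least 3 libraries were tested with limma on log2(FPKM + 1), a scale that understates the change of low genes. Of the 11924 genes tested, 0 (0%) passed both thresholds of the study, an adjusted p of at most 0.05 and a log2 fold change of 1 or more in either direction. The median log2 fold change of all tested genes was 0.17, and a relative log2 fold change is the value minus this median. Without adjustment, 12.8% of the tested genes were higher in oEV-EMT at a p of at most 0.05 and 2.55% lower. The 3 values of oEV-EMT lay above the 3 of oEV-ctrl in 18.1% of genes and below them in 4.34%. Library oEV-EMT 1 was the highest of the 6 in 37.4% of the tested genes, and fold changes without it are given where they differ most. Median-of-ratios scaling changed the split of genes without overlap to 9.70% above and 10.3% below. The markers fixed for trophectoderm, epiblast and primitive endoderm, the cell types of a blastocyst, passed the filter in 10 of 10, 8 of 8 and 8 of 8 cases. All 8 markers of cumulus and granulosa cells and all 4 of oviduct epithelium stayed below 1 FPKM in every library. Of 6 blood cell markers, 3 were at 0 in every library. *Hba-a1* passed the filter, at 0.472 to 2.22 FPKM, and *Hba-a2* did not, at 0.335 to 2.19 FPKM.

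None of the 7 tested genes passed both thresholds (0 of 7, limma with Benjamini-Hochberg adjustment), and none had an unadjusted p of at most 0.05. *Hbegf* was the 1 gene of the 10 whose groups did not overlap, and it was lower in oEV-EMT, 1 of the 7 tested beside the 4.34% of all tested genes. The median log2 fold change of the 7 was 0.10, or -0.08 relative to all genes, with 3 values higher and 4 lower than that of all genes. The smallest adjusted p among them was 0.423, that of *Hbegf*. Exact two-sided permutation tests on the FPKM are given beside these values, and they cannot go below 0.1 with 3 libraries against 3.

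The levels of the 10 genes spanned a wide range. *Spp1* was highest, above 96.1% of the tested genes, and *Egfr* was lowest. By their mean over the 6 libraries the order was *Spp1*, *Stat3*, *Erbb3*, *Hbegf*, *Lifr*, *Lif*, *Erbb2*, *Il6st*, *Socs3* and *Egfr*. Between neighbours in this order, the ranges over libraries were separate for *Spp1* and *Stat3*, for *Erbb3* and *Hbegf* and for *Socs3* and *Egfr*. The ranges of the other neighbours overlapped, although *Stat3* exceeded *Erbb3*, *Hbegf* exceeded *Lifr* and *Erbb2* exceeded *Il6st* within 6 of 6 libraries. *Lifr* exceeded *Lif* in 2 of 6 libraries and *Lif* exceeded *Erbb2* in 2 of 6, so the order of these 3 genes is not fixed by the data.

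**Figure D1:**
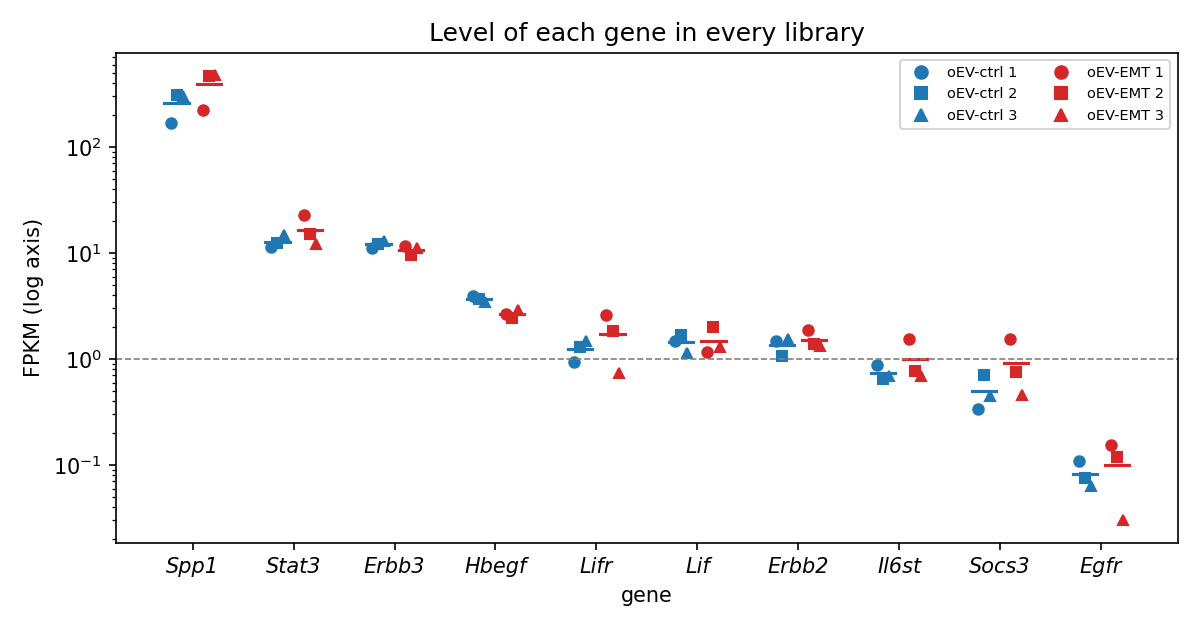
FPKM of each gene (log axis, y) in every library, genes ordered by their mean level (x), with blue for oEV-ctrl, red for oEV-EMT, marker shapes for the replicate number, short bars for group means and a dashed line at 1 FPKM. *Spp1* sits above 168 FPKM in every library, *Egfr* at 0.154 or below, and *Hbegf* is the gene with all red points below all blue ones.

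The ligands came first in the comparison. *Lif* (ENSMUSG00000034394) lies on chromosome 11 from 4257557 to 4272514 of GRCm38, on the plus strand. Its FPKM was 1.16, 1.99 and 1.31 in oEV-EMT 1, 2 and 3 and 1.47, 1.68 and 1.14 in oEV-ctrl 1, 2 and 3. The groups overlapped, with the highest value in oEV-EMT 2 and the lowest in oEV-ctrl 3. The mean was 1.49 ± 0.442 (SD, n = 3) against 1.43 ± 0.273 (SD, n = 3). The log2 fold change of *Lif* was 0.02 with a standard error of 0.21 (adjusted p = 0.968, limma), and its 95% interval ran from -0.45 to 0.50. The exact permutation test gave p = 0.9.

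*Hbegf* (ENSMUSG00000024486) lies on chromosome 18 from 36504927 to 36515805, on the minus strand. Its FPKM was 2.66, 2.44 and 2.90 in oEV-EMT and 3.90, 3.72 and 3.48 in oEV-ctrl. Every oEV-EMT library was below every oEV-ctrl library, and the libraries of each group lay close together. The mean of *Hbegf* was 2.66 ± 0.230 against 3.70 ± 0.210 (SD, n = 3 each), with p = 0.1 in the exact permutation test, the smallest it allows. On the log2 scale the difference was -0.36, its standard error 0.20, and did not pass the threshold over all genes (adjusted p = 0.423, limma), and the unadjusted p was 0.106. Relative to all genes the change was -0.53, with a 95% interval from -0.98 to -0.08 that is not adjusted for the number of genes. This gene stayed without overlap after median-of-ratios, upper quartile and total scaling. Its log2 fold change lay between -0.56 and -0.27 over 16 alternatives, with adjusted p from 0.201 to 0.688 (limma), and its unadjusted p was 0.0259 after median-of-ratios scaling. Under that scaling, 10.3% of all genes lay below without overlap, against 12.6% after upper quartile and 2.77% after total scaling.

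*Spp1* (ENSMUSG00000029304) lies on chromosome 5 from 104435118 to 104441050, on the plus strand. Its FPKM was 224, 469 and 476 in oEV-EMT and 168, 311 and 305 in oEV-ctrl. In each group library 1 was the lowest, and oEV-EMT 1 lay below 2 of the 3 oEV-ctrl libraries, so the groups overlapped. The mean was 389 ± 144 (SD, n = 3) against 261 ± 80.5 (SD, n = 3), and the log2 fold change of *Spp1* was 0.55 with a standard error of 0.35 (adjusted p = 0.477, limma; exact permutation p = 0.3). Relative to all genes it was 0.38. Of the tested genes in the set, *Spp1* depended most on single libraries. Its log2 fold change was 0.91 without oEV-EMT 1 (adjusted p = 0.205, limma) and 0.26 without oEV-ctrl 1 (adjusted p = 0.823, limma). Over all 17 alternatives it stayed positive, with adjusted p from 0.158 to 0.823 (limma). A same-strand entry, Gm42793, shares 309 bases (18.8%) of the *Spp1* exons, and it was listed at no more than 0.70 FPKM.

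**Figure D2:**
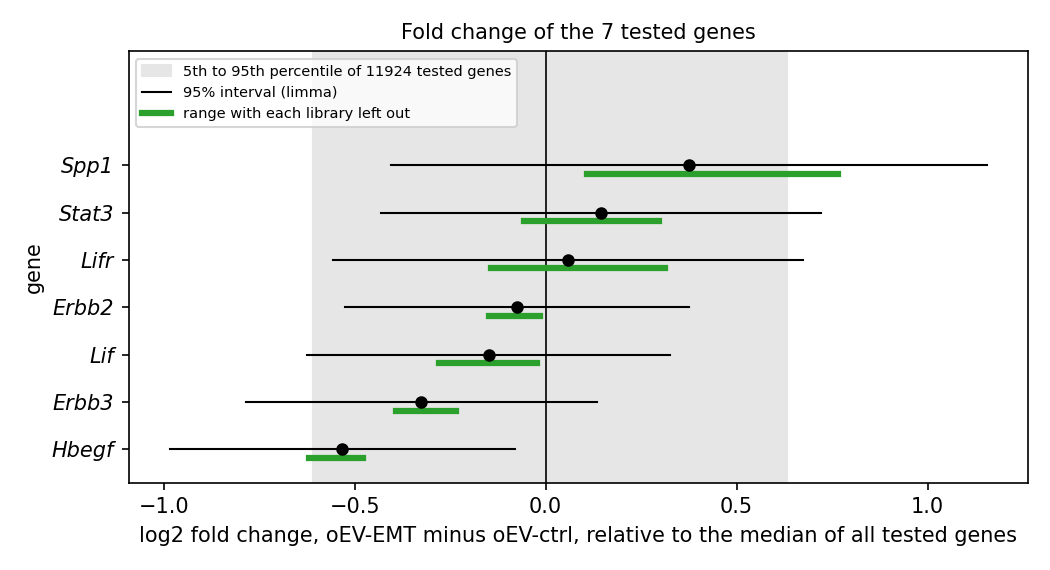
Log2 fold change of the 7 tested genes, oEV-EMT minus oEV-ctrl and relative to the median of all tested genes (x), by gene (y), with black lines for the 95% interval, green bars for the range when each library is left out in turn and a grey band from -0.61 to 0.63 that holds the middle 90% of the 11924 tested genes. All 7 points lie inside the band, from -0.53 for *Hbegf* to 0.38 for *Spp1*, and the green bar of *Spp1* is the longest.

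The LIF receptor chains were read next. *Lifr* (ENSMUSG00000054263) lies on chromosome 15 from 7090614 to 7197489, on the plus strand. Its FPKM was 2.62, 1.85 and 0.736 in oEV-EMT and 0.932, 1.31 and 1.49 in oEV-ctrl. Both the highest and the lowest library belonged to oEV-EMT, and the oEV-ctrl values fell between them. The mean of *Lifr* was 1.74 ± 0.947 (SD, n = 3) against 1.24 ± 0.285 (SD, n = 3). For this gene the log2 fold change was 0.23 with a standard error of 0.28 (adjusted p = 0.720, limma; exact permutation p = 0.5), and it was -0.0046 without oEV-EMT 1 and 0.53 without oEV-EMT 3.

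*Il6st* (ENSMUSG00000021756), the signalling chain gp130 that LIFR shares with other IL-6 family receptors, lies on chromosome 13 from 112464070 to 112510086, on the plus strand. Its FPKM was 1.53, 0.779 and 0.696 in oEV-EMT and 0.879, 0.643 and 0.685 in oEV-ctrl. Only oEV-EMT 1 exceeded 1 FPKM, so the gene was not tested, and the groups overlapped (exact permutation test, p = 0.5). In a fit without the filter, over 31842 genes, the log2 fold change of *Il6st* was 0.18 (adjusted p = 0.740, limma).

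The 4 ERBB receptors were at very unequal levels. *Egfr* (ENSMUSG00000020122), the receptor that HB-EGF and EGF share, lies on chromosome 11 from 16752203 to 16918158, on the plus strand. Its FPKM was 0.154, 0.118 and 0.0301 in oEV-EMT and 0.109, 0.0760 and 0.0639 in oEV-ctrl. The 2 highest libraries and the lowest one were of oEV-EMT. The gene stayed below 1 FPKM everywhere and was not tested, the exact permutation test gave p = 0.7, and the fit without the filter gave a log2 fold change of 0.02 (adjusted p = 0.878, limma). *Erbb4*, the other HB-EGF receptor, was listed at 0 in all 6 libraries.

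*Erbb2* (ENSMUSG00000062312) lies on chromosome 11 from 98412470 to 98437716, on the plus strand. Its FPKM was 1.86, 1.38 and 1.33 in oEV-EMT and 1.47, 1.06 and 1.54 in oEV-ctrl. The groups overlapped, with oEV-EMT 1 highest and oEV-ctrl 2 lowest. The mean of *Erbb2* was 1.52 ± 0.294 against 1.36 ± 0.258 (SD, n = 3 each), and the log2 fold change was 0.10 with a standard error of 0.20 (adjusted p = 0.845, limma; exact permutation p = 0.6). It was -0.021 after median-of-ratios scaling. The opposite-strand neighbour *Mien1*, at 172 to 236 FPKM, shares 9 bases (0.173%) of the *Erbb2* exons, and whether the counting used strand is not given in the sources used here.

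*Erbb3* (ENSMUSG00000018166), the partner receptor that binds neuregulins, lies on chromosome 10 from 128567523 to 128589652, on the minus strand. Its FPKM was 11.7, 9.49 and 11.2 in oEV-EMT and 11.1, 12.2 and 12.9 in oEV-ctrl. The groups overlapped through 1 library, oEV-ctrl 1, which lay below 2 of the oEV-EMT values. The mean was 10.8 ± 1.15 against 12.1 ± 0.909 (SD, n = 3 each), and the log2 fold change of *Erbb3* was -0.15 with a standard error of 0.21 (adjusted p = 0.751, limma; exact permutation p = 0.3). Relative to all genes it was -0.33. After median-of-ratios or upper quartile scaling, the oEV-EMT values lay below the oEV-ctrl values without overlap, beside 10.3% and 12.6% of all tested genes. The log2 fold changes were -0.34 and -0.40, with adjusted p of 0.497 and 0.447 (limma). The log2 fold change of *Erbb3* was negative in all 17 alternatives, with adjusted p from 0.365 to 0.932 (limma).

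Of the effectors, *Stat3* (ENSMUSG00000004040), the transcription factor that gp130 activates, lies on chromosome 11 from 100885098 to 100939540, on the minus strand. Its FPKM was 22.7, 15.2 and 12.1 in oEV-EMT and 11.3, 12.3 and 14.9 in oEV-ctrl. In oEV-EMT, libraries 1 and 2 exceeded all oEV-ctrl values and the remaining one, oEV-EMT 3, lay among them. The mean of *Stat3* was 16.7 ± 5.45 against 12.8 ± 1.89 (SD, n = 3 each). As a log2 fold change this was 0.32 with a standard error of 0.26 (adjusted p = 0.587, limma; exact permutation p = 0.3), 0.08 without oEV-EMT 1, 0.51 without oEV-EMT 3 and 0.07 after upper quartile scaling. *Stat5a*, on the opposite strand, shares 72 bases (0.756%) of the *Stat3* exons.

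*Socs3* (ENSMUSG00000053113), for which bases before a RefSeq start site are printed above, lies on chromosome 11 from 117966079 to 117970047, on the minus strand. Its FPKM was 1.53, 0.759 and 0.453 in oEV-EMT and 0.340, 0.707 and 0.452 in oEV-ctrl. The order of the oEV-EMT libraries was the same as for *Stat3*, *Lifr*, *Il6st*, *Egfr* and *Erbb2*. The groups overlapped (exact permutation test, p = 0.2). As 1 library exceeded 1 FPKM, the gene was not tested, and the fit without the filter gave a log2 fold change of 0.32 (adjusted p = 0.714, limma).

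Library oEV-EMT 1 was the highest of the 6 in 6 of the 10 genes, *Lifr*, *Il6st*, *Stat3*, *Socs3*, *Egfr* and *Erbb2*. This stands beside the 37.4% of all tested genes. In the same library the median deviation of log2(FPKM + 1) from the mean of each gene was 0.02 among the tested genes with the shortest exons, 0.19 among those of middle length and 0.26 among the longest, those of 4.91 kb or more, in 3 equal groups by total exon length. In oEV-EMT 3, which lay below the mean of the gene in 9 of the 10, these medians were 0.10, 0.01 and -0.13. Over all tested genes the median deviation in that library was -0.01. Of the 6 genes highest in oEV-EMT 1, 5 have exons of at least 5.21 kb in total, up to 11.3 kb in *Egfr*, and *Socs3* has 2.89 kb. *Erbb3*, at 6.02 kb, had its highest value in oEV-ctrl 3. Exon length as a cause of these levels was not tested. With the trend removed in a fit added after seeing the data, log2 fold changes were 0.17 for *Lifr*, 0.24 for *Stat3* and -0.063 for *Erbb2*, and 0.31 for *Spp1*, -0.53 for *Hbegf*, -0.29 for *Erbb3* and -0.17 for *Lif*, with adjusted p of at least 0.308 (limma).

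**Figure D3:**
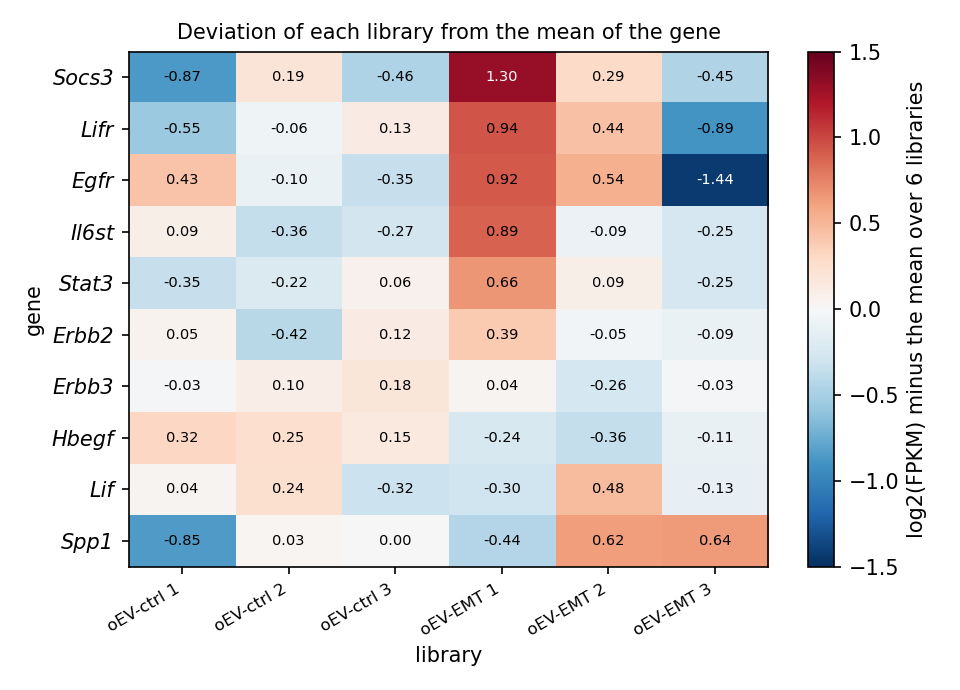
Deviation of log2(FPKM) from the mean over the 6 libraries (colour and printed value) for each gene (rows, ordered by the value in oEV-EMT 1) and library (columns). The column of oEV-EMT 1 is red for the upper 6 genes, *Socs3* to *Erbb2*, the column of oEV-EMT 3 is blue for all but *Spp1*, and the row of *Hbegf* is blue in all oEV-EMT columns and red in all oEV-ctrl columns.

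Ratios within a library do not depend on the scaling between libraries, and 7 of them were formed after the levels had been seen. *Hbegf* relative to *Erbb3* was 0.227, 0.257 and 0.259 in oEV-EMT and 0.351, 0.304 and 0.270 in oEV-ctrl. All 3 ratios of oEV-EMT were below all 3 of oEV-ctrl, 0.248 ± 0.0180 against 0.308 ± 0.0408 (SD, n = 3 each; exact permutation test on the log2 ratio, p = 0.1). Leaving out each library in turn moved the log2 difference of this ratio from -0.31 to values between -0.40 and -0.21. The groups were already separate for *Hbegf* alone and overlapped for *Erbb3* alone.
*Erbb3* exceeded *Erbb2* by 6.28 to 11.5 times (exact permutation p = 0.3). The ratio of *Lifr* to *Il6st*, the chains of the LIF receptor, was 1.06 to 2.37 (exact permutation p = 0.9), and that of *Stat3* to its inhibitor *Socs3* was 14.8 to 33.1 (exact permutation p = 0.3). In each of these 3 pairs the groups overlapped. The groups also overlapped in the ratios of *Hbegf* to *Lif* and of *Spp1* to *Hbegf* (exact permutation p = 0.3 and p = 0.2). The remaining ratio, *Spp1* to *Itgav*, is given with the integrins. All 7 raw p-values were at least 0.1, and adjustment over the 7 cannot lower them.

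**Figure D4:**
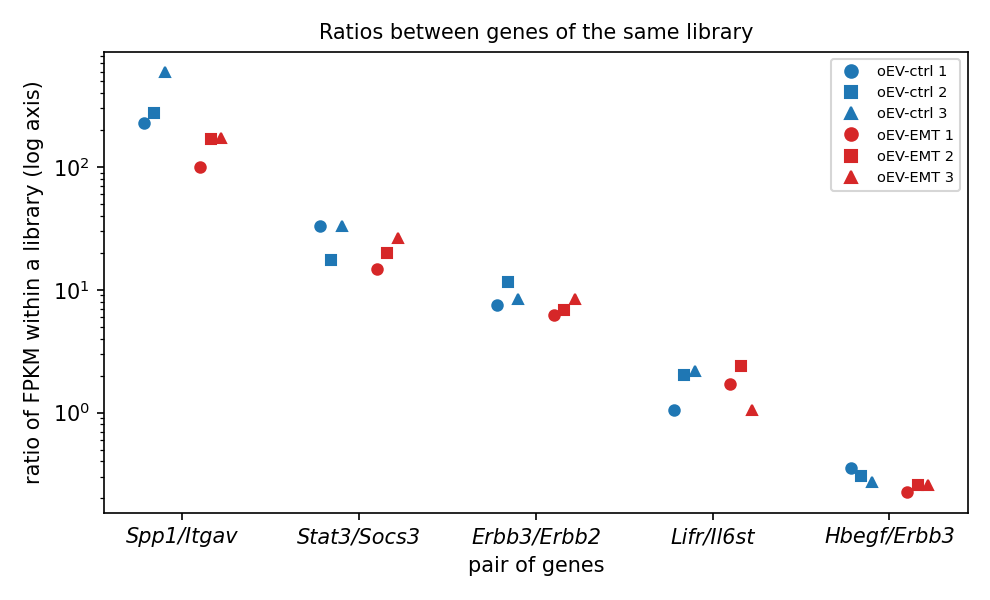
Ratio of the FPKM of 2 genes in the same library (log axis, y) for 5 pairs (x), with colours for the groups and shapes for the replicate numbers. The groups are separate for *Spp1*/*Itgav* and *Hbegf*/*Erbb3*, both lower in oEV-EMT, and overlap for the other pairs. *Itgav* and *Hbegf* are already separate on their own.

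The lists of related genes describe the surroundings of the 10 genes, and 0 genes of any list passed both thresholds. Among 11 other IL-6 family ligands and receptors, 4 were tested, and 0 had an unadjusted p of at most 0.05 in either direction. Their relative median log2 fold change was -0.22. Of the cytokines in this list, *Il6* was highest by its mean, at 2.01 to 7.02 FPKM, and *Cntf* ranged from 0.593 to 2.85 FPKM. *Ctf1*, *Clcf1* and *Osm* were below 1 FPKM in every library, and *Il11* was listed at 0 throughout. Among 20 JAK kinases, STATs and brakes of that pathway, 15 were tested and 0 had an unadjusted p of at most 0.05, with a relative median of 0.07. In 2 of the 15 tested, beside 18.1% of all tested genes, oEV-EMT lay above oEV-ctrl without overlap. These were *Stat5a* and the inhibitor *Socs1*, both named after their values were seen. *Stat5a* was 3.43, 3.69 and 4.05 FPKM in oEV-EMT and 2.06, 2.28 and 3.23 in oEV-ctrl (adjusted p = 0.375, limma).

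Among 11 genes known as targets of LIF and STAT3 in mouse embryonic stem cells, 8 were tested, 2 were higher at an unadjusted p of at most 0.05 and 0 lower, beside 12.8% and 2.55% of all tested genes. Their relative median of 0.16 was -0.0052 without oEV-EMT 1 and 0.086 without oEV-ctrl 2. Relative to all genes, 5 of the 8 were higher and 3 lower. The lower ones were *Mcl1* (-0.49), *Klf5* (-0.45) and *Klf4* (-0.07), named after their values were seen, and their groups overlapped. *Sgk1*, a kinase, was 197, 120 and 146 FPKM in oEV-EMT and 76.9, 103 and 99.1 in oEV-ctrl. *Myc*, a transcription factor of cell growth, was 22.7, 12.7 and 17.1 FPKM against 10.4, 9.29 and 10.4. Both had their highest value in oEV-EMT 1 and did not overlap between groups. The log2 fold change was 0.71 for *Sgk1* (adjusted p = 0.213, limma) and 0.71 for *Myc* (adjusted p = 0.224, limma), so neither passed over all genes. *Bcl3*, named after its values were seen, was the remaining tested target without overlap, again higher in oEV-EMT, at 2.65, 3.07 and 3.28 FPKM against 1.57, 1.85 and 2.52. Thus 3 of the 8 were higher without overlap, beside 18.1% of all tested genes. *Pim1*, a kinase below 1 FPKM that was not tested, was likewise named after its values were seen. It was also separate, at 0.904, 0.909 and 0.259 FPKM against 0.0654, 0.203 and 0.125. Among the 31842 genes without the filter, 10.1% were higher without overlap.

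Expression of the other EGF family ligands was low. Of 10 such ligands and *Erbb4*, 9 stayed below 1 FPKM in every library, and *Ereg*, *Btc* and *Erbb4* were listed at 0 in all 6. The 1 gene tested, *Nrg4*, a ligand of ERBB4, had a relative log2 fold change of -0.01 (adjusted p = 0.728, limma). *Nrg1*, a ligand of ERBB3 that did not pass the filter, was 0.721, 1.43 and 0.855 FPKM in oEV-EMT and 0.396, 0.153 and 0.567 in oEV-ctrl, higher without overlap (exact permutation test, p = 0.1). *Tgfa*, a ligand of EGFR, was also higher without overlap, at no more than 0.0547 FPKM, and both were named after their values were seen. Without the filter, 10.1% of 31842 genes were higher without overlap.

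Of 13 sheddases and partners of HB-EGF, 7 were tested, with a relative median of -0.13. At an unadjusted p of at most 0.05, 0 were higher and 1 lower, beside 12.8% and 2.55% of all tested genes. The 1 gene, *Adam10*, a protease that cuts membrane-bound ligands, was 1.38, 0.749 and 0.743 FPKM in oEV-EMT and 7.04, 1.14 and 6.12 in oEV-ctrl. Its groups overlapped through oEV-ctrl 2, which lay with the oEV-EMT libraries and not with the rest of its group. The log2 fold change of *Adam10* was -1.36 (adjusted p = 0.253, limma), and -1.97 without oEV-ctrl 2 (adjusted p = 0.208, limma), and the adjusted p ran from 0.139 to 0.666 over 16 alternatives. *Adam17*, the other well-known sheddase of the family, had means of 4.95 FPKM in oEV-EMT and 4.59 in oEV-ctrl. *Cd9*, a tetraspanin that sits beside HB-EGF in the membrane, was named after its values were seen. Of the 7 tested genes it was the 1 without overlap, beside the 4.34% of all tested genes lower without overlap. It was 1691, 1765 and 1758 FPKM in oEV-EMT and 1840, 2559 and 2101 in oEV-ctrl (log2 fold change -0.30, adjusted p = 0.453, limma), lower in oEV-EMT like *Hbegf*.

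Among 27 adaptors, RAS-ERK kinases and brakes that act below the ERBB receptors, 24 were tested, with a relative median of -0.08. At an unadjusted p of at most 0.05, 2 were higher and 1 lower, beside 12.8% and 2.55% of all tested genes. *Grb2*, an adaptor that links receptors to RAS, was 6.06, 8.83 and 7.70 FPKM in oEV-EMT and 3.72, 6.09 and 2.46 in oEV-ctrl (log2 fold change 0.79, adjusted p = 0.241, limma). *Map2k2*, the kinase MEK2, was 15.6, 24.7 and 17.5 FPKM against 15.0, 9.75 and 12.5 (log2 fold change 0.59, adjusted p = 0.300, limma). The groups overlapped for *Grb2* and were separate for *Map2k2*.
*Cbl*, a ubiquitin ligase that marks active receptors for removal, was 3.49, 2.06 and 1.41 FPKM in oEV-EMT and 3.94, 3.93 and 3.53 in oEV-ctrl (log2 fold change -0.58, adjusted p = 0.321, limma), without overlap. *Shc1*, an adaptor named after its values were seen, was higher in oEV-EMT without overlap, at 6.51, 7.39 and 6.20 FPKM against 4.73, 4.52 and 5.52 (adjusted p = 0.413, limma). In this list of 24 tested genes, 2 were higher and 4 lower without overlap, beside 18.1% and 4.34% of all tested genes.

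Of 10 osteopontin receptors, integrin chains and *Cd44*, 4 were tested, with 2 higher and 0 lower at an unadjusted p of at most 0.05, beside 12.8% and 2.55% of all tested genes. Their relative median of 0.31 was 0.14 without oEV-EMT 1 and 0.50 without oEV-EMT 3. *Itgav*, the integrin chain that pairs with several partners to hold the arginine, glycine and aspartate run printed above, was 2.23, 2.78 and 2.77 FPKM in oEV-EMT and 0.732, 1.12 and 0.517 in oEV-ctrl. Every oEV-EMT value was above every oEV-ctrl value. For *Itgav* the log2 fold change was 1.01, its standard error 0.21 (adjusted p = 0.118, limma), or 0.84 relative to all genes. Its unadjusted p of 0.000666 was the smallest among the genes of the 7 lists. Over the 16 alternatives the adjusted p ran from 0.0336 to 0.609 (limma), and it was under the threshold in 1 of them, the fit that weighted libraries by quality. *Itga5*, which pairs with the beta 1 chain, was 4.44, 2.20 and 1.49 FPKM against 1.15, 1.24 and 1.30 (log2 fold change 0.66, adjusted p = 0.303, limma), and without oEV-EMT 1 its log2 fold change was 0.34 (adjusted p = 0.367, limma). *Cd44* was listed at 0 in all libraries. Of the beta chains that pair with the product of *Itgav*, *Itgb1* ranged from 13.7 to 19.9 FPKM and *Itgb5* from 3.85 to 6.98 with the groups overlapping, and *Itgb3* and *Itgb6* had group means of at most 0.269 FPKM. The FPKM of *Spp1* was 100, 169 and 172 times that of *Itgav* in oEV-EMT and 230, 277 and 589 times in oEV-ctrl, without overlap (exact permutation test on the log2 ratio, p = 0.1). The groups were already separate for *Itgav* alone and overlapped for *Spp1* alone, so the ratio is not a further result.

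**Figure D5:**
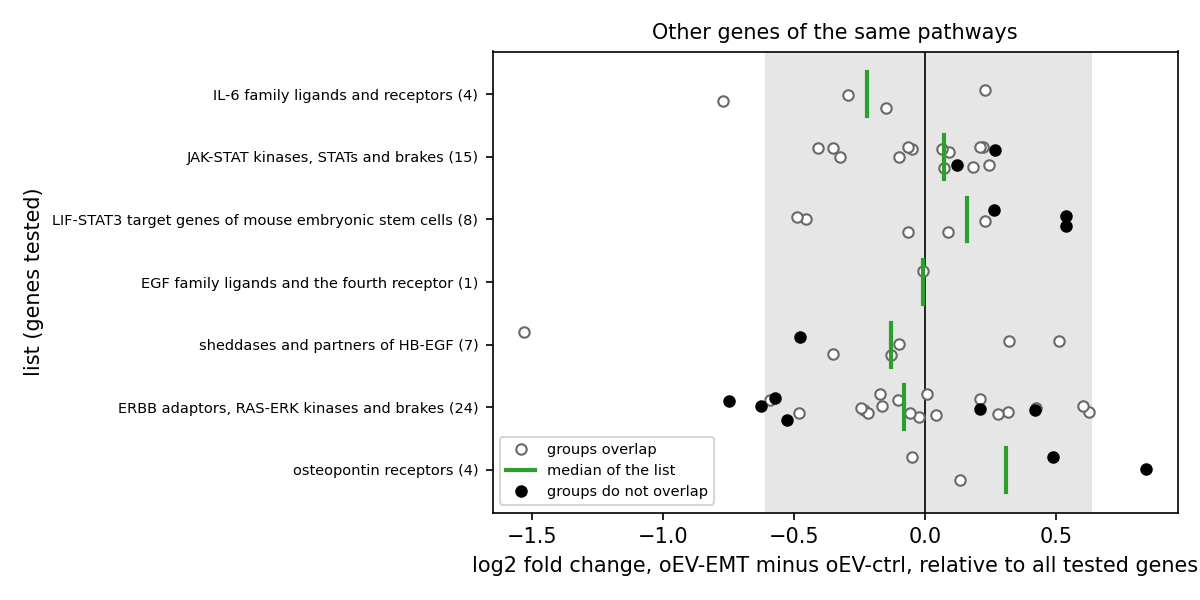
Log2 fold change, oEV-EMT minus oEV-ctrl and relative to the median of all tested genes (x), of each tested gene in 7 lists (y, with the number tested), with filled points for genes whose groups do not overlap, green ticks for list medians and a grey band for the middle 90% of the 11924 tested genes. *Itgav*, at 0.84, is the point farthest to the right and *Adam10*, at -1.53, the one farthest to the left.

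Libraries were made from whole blastocysts, in which fewer cells of a type and less RNA per cell cannot be told apart. The 10 trophectoderm markers summed to 3164 to 4782 FPKM in oEV-EMT and 3103 to 4872 in oEV-ctrl, with a relative median log2 fold change of -0.19. At an unadjusted p of at most 0.05, 1 marker, *Elf5*, was higher, beside 12.8% of all tested genes. Relative to all genes 8 of the 10 were lower, among them *Eomes* (-0.56) and *Gata3* (-0.44), whose groups overlapped. The 8 epiblast markers summed to 123 to 231 FPKM against 134 to 233, with a relative median of 0.02. Relative to all genes, 4 of the 8 were higher and 4 lower. In the limma fit, 3 were higher and 0 lower at an unadjusted p of at most 0.05, beside 12.8% and 2.55% of all tested genes. *Nanog*, *Pou5f1* and *Fgf4* were higher in oEV-EMT without overlap, 3 of 8 beside the 18.1% of all tested genes, and *Zfp42*, *Sox2* and *Esrrb* had relative log2 fold changes of -0.89, -0.49 and -0.23 with overlap. Without oEV-EMT 3 the relative median of this list was 0.34. The 8 primitive endoderm markers summed to 136 to 266 FPKM against 183 to 241, with a relative median of -0.13, or 0.09 without oEV-EMT 3. Of these, *Gata4* and *Sox7* were higher in oEV-EMT without overlap, 2 of 8 beside the 18.1% of all tested genes. *Sox17* was higher relative to all genes (0.78) with overlap. Lower relative to all genes were 5 of the 8, among them *Dab2* (-0.43), *Gata6* (-0.36) and *Col4a1* (-0.24), whose groups overlapped. In the limma fit, 2 of the 8 were higher and 0 lower at an unadjusted p of at most 0.05. *Nanog* was 53.2, 46.2 and 56.1 FPKM against 13.0, 25.8 and 37.5 (adjusted p = 0.187, limma). *Gata4* was 11.3, 7.60 and 7.46 FPKM against 5.07, 4.19 and 4.17 (adjusted p = 0.174, limma). These markers were named after their values were seen, and their part in the values of *Hbegf*, *Spp1* and the LIF receptor chains was not tested. Cumulus and granulosa cell markers summed to 0.0221 to 0.486 FPKM in oEV-EMT and 0.0716 to 0.0799 in oEV-ctrl, with 4 of 8 at 0 in all libraries. Oviduct epithelium markers summed to 0.174 to 0.349 against 0.109 to 0.261 FPKM, with 2 of 4 at 0, and blood cell markers to 1.01 to 4.41 against 0.832 to 2.44 FPKM.

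For each of the 7 genes, the 2 tested genes of most similar pattern over the 6 libraries were found by the root mean square difference of their deviations in log2(FPKM + 1) among 11923 others. They were *Ndufs5* and *Hsd3b7* for *Lif* (0.0449 and 0.0614), *Ubr4* and *Ttyh2* for *Lifr* (0.0349 and 0.0483) and *Rab5b* and *Tcp11l2* for *Stat3* (0.0294 and 0.0496). For the receptors *Erbb2* and *Erbb3* they were *Tulp3* and *Nploc4* (0.0288 and 0.0291) and Gm20625 and *Klhl28* (0.0376 and 0.0414). *Hbegf* was matched by *Fsbp* and *Plekha3* (0.0492 and 0.0497), and *Spp1* by Gm20627 and *Xlr3d-ps* (0.0782 and 0.0980). None of these genes belongs to the 10 or to the lists. With 6 libraries, a near match among so many genes is a description of these values alone.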

How the data were processed

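Blastocysts cultured with oEV-EMT or oEV-ctrl were compared by RNA sequencing of polyadenylated RNA, with 3 libraries per group grouped by their labels. The authors deposited 1 FPKM value per gene and library. The methods name TPM, which would sum to 1000000 in each library, and the values summed to 1293175 to 1551567. The submitters' processing notes name StringTie and the build mm10, and the study used DESeq2 for its own list. The aligner, read totals and strand setting are not given in the sources used here. GENCODE M21 (GRCm38) gave positions, names and exon lengths and matched 55141 of 55487 Ensembl identifiers, and RefSeq gave the promoters.

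Genes with at least 1 FPKM in at least 3 libraries were fitted as log2(FPKM + 1) in R 4.3.3 by limma 3.58.1 (trend and robust options, Benjamini-Hochberg adjustment). Calls needed an adjusted p of at most 0.05 together with a log2 fold change of 1 or more in size. For single values, exact two-sided permutation tests were run. The procedure was tested on simulated data. The text names the 10 genes, from each list up to 3 genes in each direction at an unadjusted p of at most 0.05, and for each tested gene the 2 of most similar pattern. The genes and lists were chosen with earlier results of these data known. Alternatives covered scaling, pseudocount, filter, variance model, library weights, a block for the replicate number and each library left out, and, added after seeing the data, removal of a trend with exon length (loess, span 0.5). Python 3.11.15 and matplotlib 3.10.9 drew the figures. Protein sequences were not used here.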

Additional observations from a re-analysis of the deposited data

How the results depend on the processing

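None of the 10 genes, where tested, passed both thresholds in any of the 17 alternatives. Of the 114 log2 fold changes of the tested genes under these alternatives, 105 kept their direction and side of the threshold and 9 reversed, in *Lif*, *Erbb2* and *Lifr*. *Lif* became -0.10 after median-of-ratios scaling, -0.14 after upper quartile scaling and -0.17 with the exon length trend removed, and ranged from -0.12 to 0.12 with each library left out. *Erbb2* became -0.021, -0.059 and -0.063 in the same 3 settings, and *Lifr* ranged from -0.0046 to 0.53 with each library left out. Without adjustment, 1 of the 10 genes had a p of at most 0.05 after median-of-ratios scaling, 1 after upper quartile scaling, 1 with the length trend removed, 1 with the replicate block, 2 with libraries weighted by quality, and 0 to 1 with each library left out, where the 1 was *Spp1* without oEV-EMT 1. The number without overlap was 2 after median-of-ratios scaling, 2 after upper quartile scaling, 2 with the length trend removed, 0 with a filter of 5 FPKM, under which *Hbegf* was not tested, and 1 to 3 with each library left out. It was 2 without oEV-ctrl 1, 2 without oEV-EMT 1 and 3 without oEV-EMT 3. Shares of all tested genes higher and lower without overlap were 9.7% and 10.3% after median-of-ratios scaling. After upper quartile scaling they were 7.41% and 12.6%, and with the length trend removed 10% and 9.95%. They were 22.1% and 7.32% without oEV-ctrl 1, 27.2% and 12.6% without oEV-EMT 1, and 30.6% and 6.15% without oEV-EMT 3. Over all tested genes, the number past both thresholds was 0, against 104 with weighted libraries, 21 with the replicate block and 0 to 17 with each library left out (17 without oEV-ctrl 3, 4 without oEV-EMT 1 and 1 without oEV-EMT 3). Genes at an unadjusted p of at most 0.05 numbered 1527 above and 304 below in oEV-EMT, and with median-of-ratios scaling 759 above and 769 below. In both directions together they numbered 1831 of 11924 in the main fit and 1508 of 11951 after upper quartile scaling. Of the 11924 genes they were 1551 with the length trend removed, 1621 with the replicate block, 2789 with weighted libraries and 2182 without oEV-EMT 1. Libraries of the same number in both groups deviated with correlations of 0.119, -0.0442 and 0.0388. These values cannot show whether libraries of the same number shared a culture, which the labels do not give. The other named genes kept direction and side in 131 of 132 values, the exception being *Itgav* with weighted libraries. The medians of the lists moved by more than the spread in 11 of 183 values. The depth behind the FPKM is unknown, which limits most the values below 1 FPKM, such as those of *Egfr*.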
